A study of Mus musculus with 6 samples.

Results

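The genes described here build elastic fibres and crosslink the extracellular matrix: elastin, the fibrillins, the fibulins and the lysyl oxidases. The list named 10 genes (Eln, Fbn1, Fbn2, Fbln1, Fbln2, Fbln5, Lox, Loxl1, Loxl2 and Loxl4). A gene was taken from probe sets with exactly 1 gene symbol, and the probe set with the highest mean stood for it. This rule gave values for 8 of the 10 genes, out of 19935 genes measured in all. Fbn1 and Loxl2 are not analysed here.

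Expression was measured on 6 arrays of osteoblastic cells from male mice. The 4 wild-type (WT) arrays and the 2 arrays from mice without the neuropeptide Y receptor Y1 (Y1KO) were compared to ask what loss of this receptor changes in bone-forming cells. All mice carried a green fluorescent reporter under a 3.6-kb piece of the rat collagen I alpha 1 promoter, and marrow stromal cells of femora and tibias were cultured for 7 days before the fluorescent cells were sorted. The sources used here give neither strain, age and the reach of the Y1 deletion (all cells or some) nor the number of mice behind an array. The p-values therefore measure only how these arrays vary, and part of that spread may be technical.

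Elastic fibres give tissues recoil. Elastin is secreted as a soluble monomer, gathers on microfibrils built from fibrillins, is guided there by fibulins, and becomes insoluble when lysyl oxidases, copper-dependent enzymes, oxidise its lysines so that they form crosslinks. The same enzymes crosslink fibrillar collagen, which in bone gives the matrix its tensile strength.

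The log2 values of the arrays had medians between 5.3 and 5.37. Correlations across genes, which are no independent replicates, were 0.9911 to 0.9958 among WT arrays, 0.9961 between the Y1KO arrays and 0.9762 to 0.9875 across genotypes. The osteoblast identity of the sorted cells was checked on 7 measured markers of a list of 10. All 7 lay above percentile 82 of all genes in WT, the lowest being Phex at percentile 82.1, and Col1a1, whose promoter drives the reporter, lay at percentile 100. By limma 0 of the 7 rose and 0 fell in Y1KO, and 4 were higher at an unadjusted p under 0.05, as were 11.7% of all genes. In 6 of the 7 both Y1KO arrays lay above every WT array, against 17.5% of all genes. The median difference of the 7 was 0.43, against 0.007 for all genes. Dmp1 and Phex varied widely among the WT arrays, with SDs at percentiles 99.9 and 100 of all genes.

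Among the 8 measured genes, Fbln5, Loxl1 and Fbln1 fell and Loxl4 rose in Y1KO, while Eln, Fbn2, Fbln2 and Lox did not pass the test. A gene was called where limma's p, adjusted over all genes (Benjamini-Hochberg), was under 0.05. By this rule 6.64% of all genes were lower and 6.1% higher in Y1KO, 12.7% in either direction. The called genes were 4 of 8, but the list was drawn up with earlier results of these data known, so this share is a description. The median difference of the 8 genes, Y1KO minus WT, was -0.46 on the log2 scale, against 0.007 for all genes. In 5 of the 8 genes both Y1KO arrays lay beyond every WT array, as they did in 34.8% of all genes. They lay below in 4 of the 8 and above in 1, against 17.3% and 17.5% of all genes. The 8 genes are shown array by array in the plot of log2 values.

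**Figure D1:**
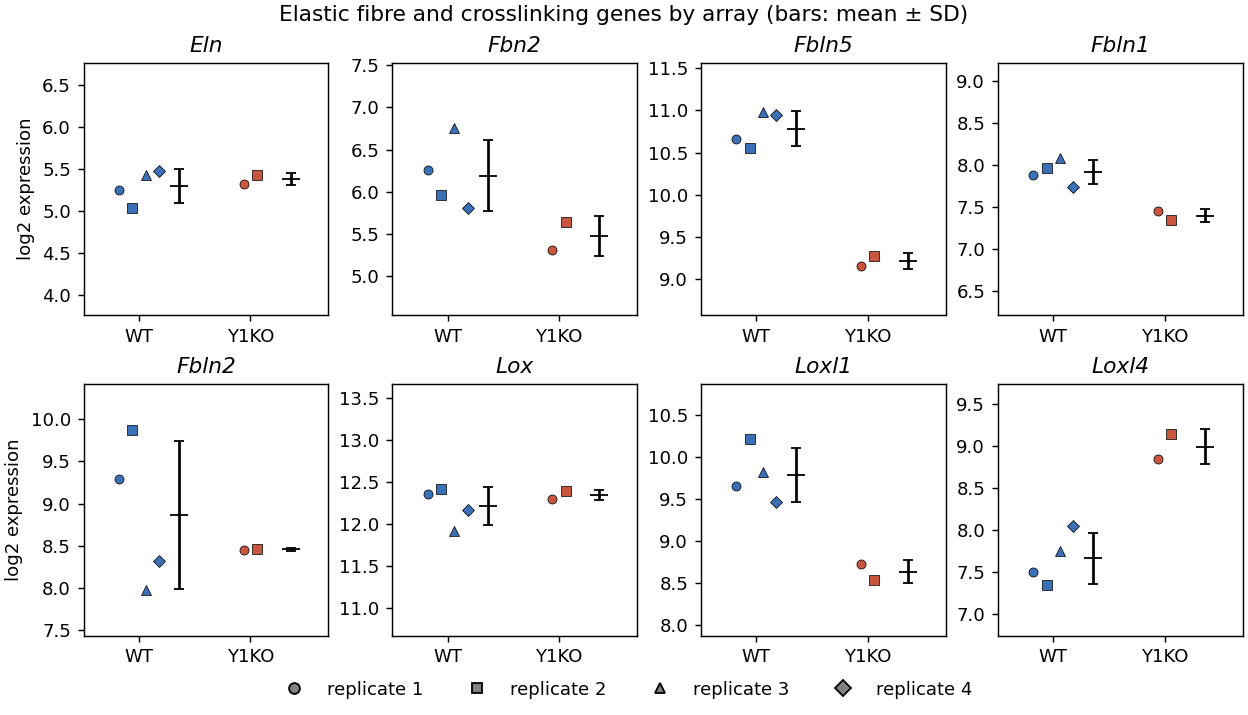
Log2 expression (y axis, each panel spanning the same number of log2 units) of the 8 measured genes in WT (blue) and Y1KO (red) arrays, with marker shapes for replicates 1 to 4 and bars for mean ± SD. Fbln5, Fbln1, Loxl1 and Fbn2 lie lower in both Y1KO arrays than in any WT array, Loxl4 lies higher in both, and Eln, Fbln2 and Lox overlap.

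Promoter sequence is shown for genes that moved in different directions, Fbln5 and Fbln1, which fell, and Loxl4, which rose. RefSeq windows were held for 5 of the 10 genes. Each stretch is the 250 bases before the first start of the gene on mouse build GRCm38.p6, written 5′ to 3′ on the gene's strand. For Fbln5 it is chr12:101819120-101819369 on the - strand, for Fbln1 chr15:85205699-85205948 on the + strand, and for Loxl4 chr19:42612807-42613056 on the - strand. Capitals mark GC boxes, GGGCGG on either strand, and the half-site of the cAMP response element, TGACG on either strand.
Fbln5: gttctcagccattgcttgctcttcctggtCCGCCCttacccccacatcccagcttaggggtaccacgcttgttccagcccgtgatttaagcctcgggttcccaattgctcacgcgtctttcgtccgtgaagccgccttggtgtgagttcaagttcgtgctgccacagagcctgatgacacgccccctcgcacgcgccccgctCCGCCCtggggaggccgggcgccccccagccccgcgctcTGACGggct
Fbln1: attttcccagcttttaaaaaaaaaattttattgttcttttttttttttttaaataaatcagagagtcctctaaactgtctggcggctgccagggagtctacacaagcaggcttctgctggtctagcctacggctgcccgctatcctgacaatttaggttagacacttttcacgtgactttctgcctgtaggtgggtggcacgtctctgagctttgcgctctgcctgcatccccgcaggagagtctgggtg
Loxl4: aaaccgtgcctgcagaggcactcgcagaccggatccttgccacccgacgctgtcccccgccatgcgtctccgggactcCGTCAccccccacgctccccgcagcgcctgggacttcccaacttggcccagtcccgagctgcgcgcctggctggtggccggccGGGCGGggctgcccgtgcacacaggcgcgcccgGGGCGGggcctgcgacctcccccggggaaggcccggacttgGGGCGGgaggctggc

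The motifs were chosen after expression values had been seen, and a match is a run of letters in this window and no evidence of binding. The Loxl4 stretch held 3 GC boxes and had a GC content of 76%, the Fbln5 stretch held 2 with a GC content of 65.2%, and the Fbln1 stretch held 0 with a GC content of 46.4%. Fbln5 and Fbln1 each have 2 starts in these windows, and at the second start the order was the other way round, with 0 GC boxes and a GC content of 49.6% for Fbln5 and 1 GC box and 62.4% for Fbln1. The median GC content of all 32851 such windows was 52.4%, and 32.7% of them held a GC box. The Fbln5 and Loxl4 stretches each held 1 cAMP half-site and the Fbln1 stretch held 0, a run found in 17.8% of all windows. A SMAD box, CAGAC on either strand, occurred 2 times in Fbln1, 1 time in Loxl4 and 0 times in Fbln5 (2 times at the second start of Fbln5 and of Fbln1), against 42.2% of windows with at least 1. The AP-1 run TGANTCA (6.7% of windows), the TEAD run GGAATG (12.6%) and the TATA run TATAAA (12.4%) were in 0 of the 3 stretches, each searched on both strands. In these 3 stretches 0 matches overlapped a match of another motif.

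Eln, which encodes the elastic core of the fibre, did not pass the test. On the log2 scale it read 5.25, 5.04, 5.43 and 5.48 in WT and 5.33 and 5.43 in Y1KO. Both Y1KO values lay inside the WT range. The WT mean was 5.30 ± 0.20 (SD, n = 4) and the Y1KO mean 5.38 ± 0.07 (SD, n = 2), which differ by 0.08 (SE 0.13, 95% interval -0.22 to 0.38, limma adjusted p = 0.801). The probe set lay at percentile 45 of all genes in WT and 46.6 in Y1KO, below the middle of the array's range, where an array can understate a difference. Without WT replicate 2, the lowest array, the difference turned to -0.0092.

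Fbn2, a fibrillin of the microfibril scaffold that is most used during development, was lower in both Y1KO arrays without passing the test. It read 6.26, 5.95, 6.75 and 5.80 in WT and 5.30 and 5.64 in Y1KO. The groups did not overlap, but the gap between the lowest WT array and the higher Y1KO array was smaller than the spread among the WT arrays. The mean was 6.19 ± 0.42 (SD, n = 4) against 5.47 ± 0.24 (SD, n = 2), a difference of -0.72 (SE 0.24, 95% interval -1.26 to -0.18, limma adjusted p = 0.0922). With limma's array weights the adjusted p was 0.0461, the only alternative setting in which it was under 0.05. Without moderation it was 0.326.

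The fibulins are secreted glycoproteins with calcium-binding repeats of the epidermal growth factor type. Fbln5, which binds elastin and integrins and tethers lysyl oxidase-like 1 to the forming fibre, fell 2.98-fold in Y1KO. It read 10.66, 10.55, 10.98 and 10.95 in WT and 9.14 and 9.27 in Y1KO. The groups stood far apart relative to the spread within either one. The mean went from 10.79 ± 0.21 (SD, n = 4) to 9.21 ± 0.09 (SD, n = 2), a difference of -1.58 (SE 0.14, 95% interval -1.89 to -1.27, limma adjusted p = 0.000435). By size of difference Fbln5 ranked 149 of 19935 genes. Its adjusted p was between 0.000239 and 0.0119 when any 1 array was left out.

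Fbln1, which is found in elastic fibres and in basement membranes, fell by a smaller amount. It read 7.88, 7.96, 8.08 and 7.73 in WT and 7.45 and 7.34 in Y1KO. Both Y1KO arrays lay below all WT arrays, the nearest being WT replicate 4. The WT mean was 7.91 ± 0.14 (SD, n = 4) and the Y1KO mean 7.40 ± 0.08 (SD, n = 2), which differ by -0.52 (SE 0.11, 95% interval -0.77 to -0.27, limma adjusted p = 0.0171) or 1.43-fold. The call was lost without Y1KO replicate 1 (limma adjusted p = 0.0806), without Y1KO replicate 2 (0.172) and in a model with unmoderated variance (0.109).

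Fbln2, a large fibulin that binds fibrillin and basement membrane proteins, varied more among the WT arrays than between genotypes. It read 9.30, 9.88, 7.97 and 8.31 in WT and 8.44 and 8.46 in Y1KO. WT replicates 1 and 2 were high, WT replicates 3 and 4 were low, and both Y1KO arrays lay between them. The WT SD of 0.88 stood at percentile 99.8 of all genes, whereas the Y1KO SD was 0.01. The difference of -0.41 (SE 0.45, 95% interval -1.45 to 0.62, limma adjusted p = 0.675) leaves both a decrease and an increase possible. Without WT replicate 2 it was -0.07 and without WT replicate 3 it was -0.71. A block on the replicate numbers, which the labels do not mark as pairs, gave -1.13 (limma adjusted p = 0.00646). In that model WT replicates 3 and 4 carry no weight for the difference.

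The WT arrays parted in the same way in other genes of the list. WT replicates 1 and 2 were higher than WT replicates 3 and 4 in Lox, and lower in Eln, Fbln5 and Loxl4. Over all genes, the first principal component of the WT arrays held 48.9% of their variance and placed replicates 1 to 4 at -5.37, -21.3, 19.6 and 7.08. The labels give no batch for the arrays, and the part of this order in the results was not tested.

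Lox, the founding lysyl oxidase and a major crosslinking enzyme of bone collagen, did not pass the test. It read 12.36, 12.42, 11.92 and 12.17 in WT and 12.30 and 12.39 in Y1KO. The Y1KO values lay within the WT range. The mean was 12.21 ± 0.22 (SD, n = 4) against 12.34 ± 0.06 (SD, n = 2), a difference of 0.13 (SE 0.14, 95% interval -0.19 to 0.45, limma adjusted p = 0.67).

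Loxl1, the lysyl oxidase required for elastic fibre upkeep, fell 2.23-fold in Y1KO. It read 9.65, 10.22, 9.83 and 9.47 in WT and 8.74 and 8.54 in Y1KO. All WT arrays lay above both Y1KO arrays. The mean went from 9.79 ± 0.32 (SD, n = 4) to 8.64 ± 0.14 (SD, n = 2), a difference of -1.15 (SE 0.19, 95% interval -1.58 to -0.73, limma adjusted p = 0.00526). The call was lost without Y1KO replicate 2 (limma adjusted p = 0.0806) and without moderation (0.106).

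Loxl4, a lysyl oxidase of the branch that carries scavenger receptor domains, was the member that rose, 2.51-fold. It read 7.51, 7.35, 7.76 and 8.06 in WT and 8.85 and 9.14 in Y1KO. Both Y1KO arrays lay above every WT array. The mean went from 7.67 ± 0.31 (SD, n = 4) to 9.00 ± 0.21 (SD, n = 2), a difference of 1.33 (SE 0.19, 95% interval 0.91 to 1.75, limma adjusted p = 0.00302). The second Loxl4 probe set read 6.86, 6.53, 8.04 and 7.79 in WT and 8.49 and 8.82 in Y1KO. Its difference of 1.35 (SE 0.38) was alike in size, with a wider spread in WT and a limma p adjusted over all probe sets of 0.0539. The call of Loxl4 was lost without Y1KO replicate 2 (limma adjusted p = 0.0554) and without moderation (0.0855).

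Changes of at least 2-fold were called for Fbln5 and Loxl1, which were lower, and Loxl4, which was higher. Of all genes, 1.46% were called at least 2-fold lower and 0.948% at least 2-fold higher. The plot of adjusted p by setting shows how far each call rested on single choices.

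**Figure D2:**
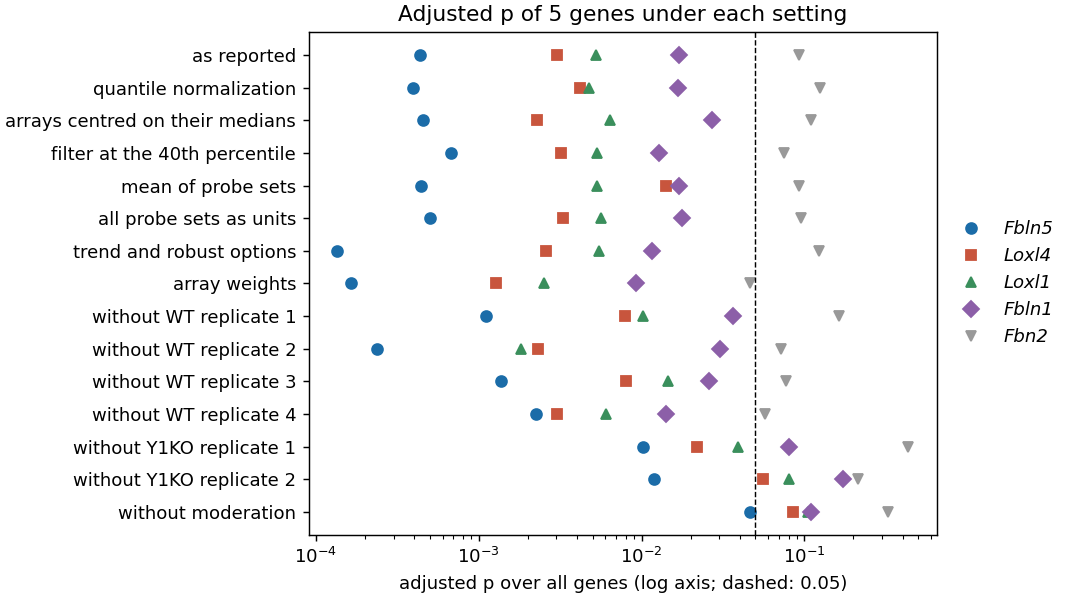
Adjusted p over all genes (x axis, log scale; dashed line at 0.05) of Fbln5, Loxl4, Loxl1, Fbln1 and Fbn2 under each processing setting except the replicate block (y axis). Fbln5 stays left of the line in every setting shown, with 0.0464 without moderation as its highest value, whereas Fbln1 crosses it without either Y1KO array and without moderation.

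Members of a family were set against each other within each array, which asks whether 2 genes changed unequally between genotypes. There were 6 pairs, and a two-sided exact permutation test, in which 6 arrays split into 4 and 2 in 15 ways, allows no p below 0.0667. The Loxl1 minus Loxl4 log2 difference was 2.14, 2.86, 2.07 and 1.41 in WT and -0.12 and -0.60 in Y1KO. Every Y1KO value lay below every WT value. The change of -2.48 corresponds to a 5.59-fold shift of this ratio (exact permutation p = 0.0667, adjusted p = 0.133 over the 6 pairs).

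The ratio of Lox to Loxl1 moved too, with groups that did not overlap. The Lox minus Loxl1 difference was 2.70, 2.20, 2.09 and 2.70 in WT and 3.56 and 3.85 in Y1KO, a change of 1.28 (exact permutation p = 0.0667, adjusted p = 0.133). Lox minus Loxl4 changed by -1.20 (exact permutation p = 0.133, adjusted p = 0.2), again without overlap. Among the fibulins, Fbln1 minus Fbln5 was -2.77, -2.60, -2.90 and -3.21 in WT and -1.69 and -1.93 in Y1KO. All Y1KO values were above the WT values, a change of 1.06 (exact permutation p = 0.0667, adjusted p = 0.133). Both pairs with Fbln2 overlapped between genotypes, with changes of -0.11 for Fbln1 minus Fbln2 (exact permutation p = 0.933) and 1.17 for Fbln2 minus Fbln5 (exact permutation p = 0.267). No pair passed 0.05, which this design cannot reach.

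**Figure D3:**
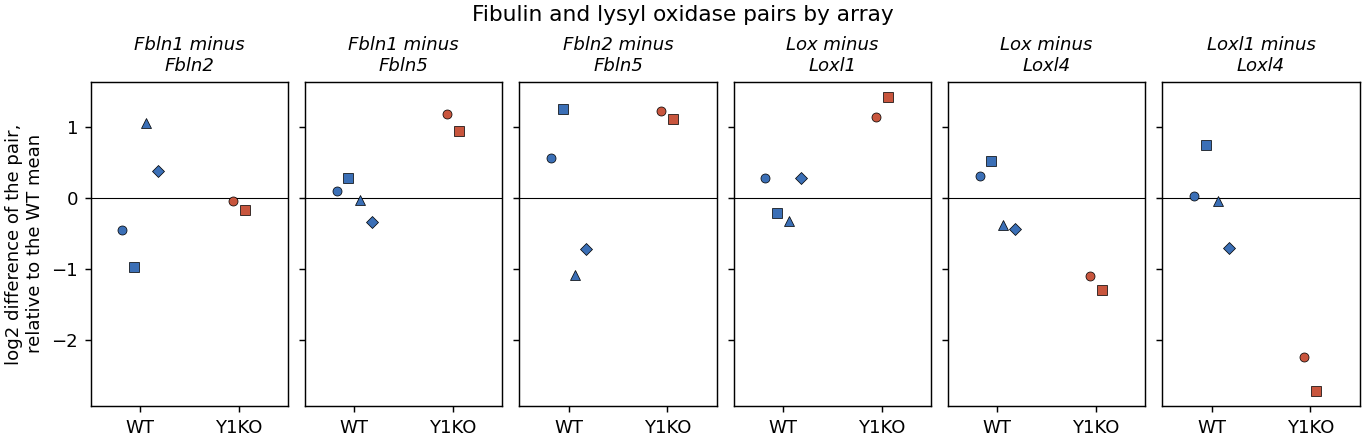
Log2 difference of 2 genes of one family within each array, relative to the WT mean of that pair (y axis), for WT (blue) and Y1KO (red) arrays, with marker shapes for replicates 1 to 4. The Loxl1 minus Loxl4 pair shows the widest separation, with a change of -2.48, and the pairs with Fbln2 overlap.

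Other genes of microfibrils and of elastic fibre assembly were taken from a list of 22, of which 21 were measured. In Y1KO 4 fell and 0 rose by limma, against 6.64% and 6.1% of all genes. At an unadjusted p under 0.05, 6 of the 21 were lower and 3 higher, against 12.5% and 11.7% of all genes. The list median was 0, against 0.007 for all genes. Ltbp2, which belongs to the latent TGF-beta binding protein family by name and guides fibulin-5 to microfibrils, fell 5.12-fold. It read 8.53, 8.88, 8.73 and 8.13 in WT and 6.13 and 6.30 in Y1KO, with a difference of -2.36 (SE 0.19, limma adjusted p = 0.000318).

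Efemp1, which encodes fibulin-3, fell by 1.49 (SE 0.25, limma adjusted p = 0.00669). It read 5.84, 6.24, 6.32 and 5.29 in WT and 4.49 and 4.38 in Y1KO, where it stood at percentile 30.4 of all genes. Mfap5, a microfibril-associated glycoprotein, fell by 0.94 (limma adjusted p = 0.0432) and Ltbp1, which anchors latent TGF-beta in the matrix, by 0.37 (limma adjusted p = 0.0304). Mfap5 lost its call in 8 of the 15 alternative settings and Ltbp1 in 6, leaving out either Y1KO array among them in both. Mfap2, the other microfibril-associated glycoprotein, read 9.57, 9.38, 9.70 and 9.17 in WT and 9.37 and 9.56 in Y1KO, and its difference of 0.01 had a sign that turned in 5 settings. Emilin1, an elastin interface protein, differed by 0.36 (limma adjusted p = 0.0562). Ltbp2 kept its call in all 15 settings, and 1 gene of the list was called lower without Y1KO replicate 1, without Y1KO replicate 2 or without moderation. Efemp1 lost its call in each of those 3.

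Genes that activate, accompany or supply the crosslinking enzymes were taken from a list of 15, all measured. In Y1KO 4 rose and 0 fell by limma, against 6.1% and 6.64% of all genes, and the list median was 0. At an unadjusted p under 0.05, 6 of the 15 were higher and 1 lower, against 11.7% and 12.5% of all genes. Pcolce2, an enhancer of the protease that trims procollagen, rose by 1.07 (SE 0.12, limma adjusted p = 0.00148). It read 7.26, 7.51, 7.26 and 7.17 in WT and 8.24 and 8.51 in Y1KO. Plod2, which hydroxylates the lysines of collagen ends before they are crosslinked, rose by 0.79 (SE 0.14, limma adjusted p = 0.00834), from 10.40, 9.87, 10.20 and 10.14 to 10.84 and 11.05. Both genes had Y1KO arrays above every WT array.

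Slc31a1, the copper importer of the cell, rose by 0.47 (limma adjusted p = 0.0161), and Postn, a matrix protein that helps activate lysyl oxidase, by 0.52 (limma adjusted p = 0.0477). Postn lost its call in 9 of the 15 alternative settings, Slc31a1 lost it without either Y1KO array and without moderation, Plod2 without Y1KO replicate 2 and without moderation, and Pcolce2 without moderation. Fn1, the fibronectin gene, differed by -0.17 (limma adjusted p = 0.461), and Pcolce by -0.03 (limma adjusted p = 0.908). Rising genes numbered 2 when Y1KO replicate 1 was left out, 1 when Y1KO replicate 2 was, and 0 without moderation.

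**Figure D4:**
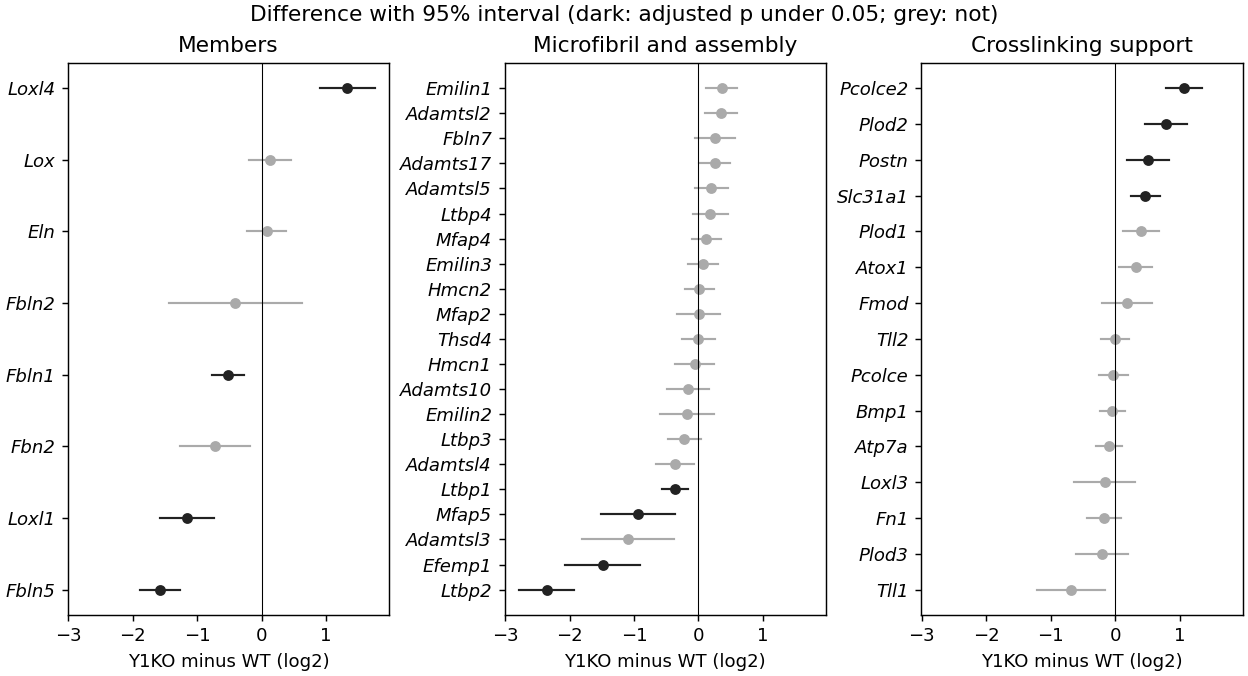
Difference of Y1KO minus WT on the log2 scale (x axis) with its 95% interval, for the 8 members, the 21 measured microfibril and assembly genes and the 15 crosslinking support genes; dark points passed an adjusted p of 0.05 and grey points did not. Dark points lie on both sides of 0 among the members, below 0 in the microfibril list and above 0 in the crosslinking support list.

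The collagens that lysyl oxidases crosslink, and the basement membrane collagens of type IV, changed in both directions. Of 9 genes, 2 rose and 3 fell by limma, against 6.1% and 6.64% of all genes, with a median of 0.18. At an unadjusted p under 0.05, 4 were higher and 4 lower, against 11.7% and 12.5% of all genes. Col4a2 read 8.69, 8.92, 8.87 and 9.05 in WT and 7.38 and 7.28 in Y1KO and fell by 1.56 (limma adjusted p = 0.00025). Col4a1, the partner chain in the same trimer, fell by 1.40 (limma adjusted p = 0.000611), and Col5a3 by 0.58 (limma adjusted p = 0.0238). Col11a1, a fibrillar collagen that helps set fibril width, rose by 1.25 (limma adjusted p = 0.00203) and Col5a2 by 0.58 (limma adjusted p = 0.00826). Col1a1 and Col1a2, the chains of the main bone collagen, differed by 0.18 and 0.23 (limma adjusted p = 0.225 and 0.14). Col4a1 and Col4a2 kept their calls in all 15 settings. Col5a2 lost its call without either Y1KO array, Col5a3 without these or WT replicate 4, and both of them and Col11a1 without moderation.

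Of 10 proteases that cut elastin or collagen and their inhibitors, 2 rose and 0 fell by limma, against 6.1% and 6.64% of all genes, and the median was 0.15. At an unadjusted p under 0.05, 3 were higher and 0 lower, against 11.7% and 12.5% of all genes. The protease genes Ctss and Mmp2 rose by 0.88 and 0.40 (limma adjusted p = 0.0033 and 0.0263). Ctss, which macrophages also express, read 6.85, 6.74, 6.92 and 6.81 in WT and 7.49 and 7.93 in Y1KO. Mmp14, an activator of Mmp2, differed by 0.03 (limma adjusted p = 0.925), a difference whose sign turned in 3 settings, and the inhibitor gene Timp1 by 0.23 (limma adjusted p = 0.235). Mmp2 lost its call in 5 of the 15 settings, leaving out WT replicate 4 or either Y1KO array among them, and Ctss lost it without moderation.

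Of 9 receptor genes for elastic fibre and matrix proteins, 3 fell and 0 rose by limma, against 6.64% and 6.1% of all genes, and the median was -0.42. At an unadjusted p under 0.05, 5 were lower and 0 higher, against 12.5% and 11.7% of all genes. Itgb3, which pairs with the alpha v integrin to bind fibrillins and fibulin-5, fell by 1.00 (limma adjusted p = 0.00116), from 7.51, 7.84, 7.72 and 7.68 to 6.75 and 6.62. Itga8 and Itgb8 fell by 0.91 and 0.52 (limma adjusted p = 0.00497 and 0.0334). The level of Itga8 was low, at percentile 35.8 of all genes in WT and 20.6 in Y1KO. Itgav, the alpha v chain itself, differed by -0.42 (limma adjusted p = 0.112), and Itgb1 by 0.02 (limma adjusted p = 0.926) with a sign that turned in 3 settings. Itgb3 kept its call in all 15 settings. Itga8 lost it without Y1KO replicate 1 and without moderation, and Itgb8 in 7 settings, leaving out WT replicate 1, WT replicate 4 or either Y1KO array among them.

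Markers of other cell types moved in the same arrays. Such cells may be present after sorting, or the sorted cells may express these genes themselves. The shares to set beside each marker count are those of all genes by limma, 6.64% lower and 6.1% higher. In Y1KO 9 of the 12 markers of smooth muscle and pericytes fell and 1 rose. The gene that rose was Cspg4, by 1.16 (limma adjusted p = 0.0123). Des and Rgs5 did not pass the test (differences of 0.52 and -1.31, limma adjusted p = 0.0772 and 0.142). In WT the 12 markers stood between percentile 47.1 (Rgs5) and percentile 100 (Acta2) of all genes. Their summed level, added up on the linear scale, was 14088 to 16869 in WT and 8446 to 9060 in Y1KO. Of 6 adipocyte genes 4 fell, with summed levels of 1291 to 1924 and 402 to 404. Lpl, the highest of the 6, weighed most in that sum, at a mean log2 of 9.76 in WT and 7.06 in Y1KO. The adipocyte genes Adipoq and Plin1 did not pass the test (differences of -0.93 and -0.03, limma adjusted p = 0.266 and 0.95). Of 10 macrophage genes 6 rose, with 659 to 926 in WT and 1008 to 1606 in Y1KO. Lyz2, the highest of the 10, weighed most there, at 8.49 in WT and 9.45 in Y1KO. The macrophage genes Cd14, Fcer1g, Itgam and Ptprc did not pass the test (differences of -0.07, -0.11, -0.002 and 0.15). The smooth muscle, pericyte, adipocyte and macrophage genes named here were picked after their values were seen. Of 6 tendon and fibroblast genes 3 rose, with 327 to 412 and 530 to 550. Tnmd, Pi16 and Cd34, named after their values were seen, did not pass the test (differences of -0.46, 0.20 and -0.04). Of 6 chondrocyte genes 1 fell, Col2a1 (named after its value was seen), with summed levels of 1277 to 1981 and 671 to 690. Without Col2a1 the other 5 summed to 198 to 233 in WT and 217 to 219 in Y1KO, and 0 of these 5 were called by limma (1 was higher at an unadjusted p under 0.05), so the fall of the sum was that of Col2a1.

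Of 8 endothelial genes 0 rose and 0 fell by limma, and 0 were higher or lower at an unadjusted p under 0.05, with summed levels of 163 to 195 in WT and 172 to 182 in Y1KO. The endothelial genes Tek and Emcn and the cartilage gene Matn1 lay below percentile 25 of all genes in both genotypes. The summed level of the osteoblast markers was 29347 to 36285 in WT and 43147 to 43658 in Y1KO. In such bulk samples fewer cells of a type, less RNA per cell and altered expression by the osteoblastic cells themselves cannot be told apart. The part of other cell types in the changes of Fbln5, Fbln1, Loxl1 and Loxl4 was not tested.

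**Figure D5:**
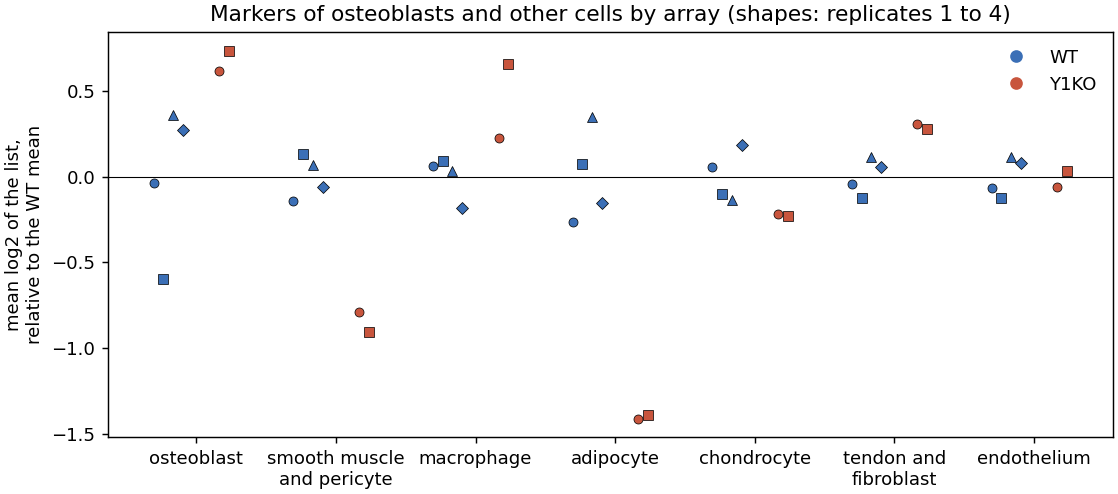
Mean log2 expression of each marker list relative to its WT mean (y axis) for WT (blue) and Y1KO (red) arrays, with marker shapes for replicates 1 to 4. In Y1KO the mean is 0.68 for osteoblast genes, 0.44 for macrophage genes and 0.29 for tendon and fibroblast genes. It is -0.85 for smooth muscle and pericyte genes, -1.40 for adipocyte genes and -0.225 for chondrocyte genes, and endothelial genes overlap with WT. Dmp1 and Phex, neither of which passed the test, weighed most in the osteoblast mean, with differences of 1.66 and 1.53.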

How the data were processed

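Gene expression was measured on 6 Affymetrix single-channel arrays, 4 WT and 2 Y1KO, grouped by the sample titles. The deposited table gives log2 values of 28815 probe sets on each array. The submitters' processing notes name RMA and limma, without versions. The sources used here name no genome build or annotation. No further normalization was applied. Probe sets were named from the repository's platform annotation, which can be old: 21780 had 1 symbol, 1605 had several and 5430 were not listed. For 998 genes with several probe sets the highest mean was used.

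Y1KO was compared with WT by limma 3.58.1 in R 4.3.3 (lmFit, eBayes), with genotype alone in the model, two-sided, with Benjamini-Hochberg adjustment over 19935 genes. The code was tested on simulated data. Of the 10 planned family pairs, 6 had both genes measured, and these used exact permutation tests. The alternatives were quantile normalization, median centring, a filter at the 40th percentile, other probe set rules, trend and robust options, array weights, leaving out each array, a replicate block and no moderation. All 8 members were described in full. Of the other lists, called genes whose Y1KO arrays lay beyond all WT arrays were named, with up to 2 uncalled genes of highest mean. Members and lists were chosen with earlier results of these data known. The number of arrays limits the precision.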

Additional observations from a re-analysis of the deposited data

How the results depend on the processing

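When each array was left out in turn, the genes called among the 8 members ranged from 0 to 1 higher and 1 to 3 lower, those of the microfibril list from 1 to 4 lower, those of the crosslinking support list from 1 to 4 higher and 0 to 1 lower, and those of the whole table from 487 to 2462. The 1 crosslinking gene called lower appeared without WT replicate 2. Where 1 Y1KO array was left out, the lone array was assumed to vary like the WT arrays. Without moderation the counts were 0 members higher and 1 lower, 1 microfibril gene lower, 0 crosslinking genes higher and 344 genes in all. Microfibril genes called higher numbered 2 with median-centred arrays and 1 each with the filter at the 40th percentile, with trend and robust options and with array weights, against 0 otherwise. The differences of Fbln5, Fbln1, Loxl1, Loxl4, Fbn2 and Fbln2 kept their sign in all 15 settings. Eln ranged from -0.0092 to 0.14 over left-out arrays and Fbln1 minus Fbln2 from -0.43 to 0.25. The pairs were run only with each array left out and in 4 other settings, where the other 5 pairs kept their sign. The cause of these shifts was not tested.

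The replicate numbers that the 2 genotypes share do not mark a pairing in the labels, and deviations from the group means correlated at 0.013 for number 1 and -0.204 for number 2. With the replicate block, in which WT replicates 3 and 4 carry no weight for the difference, 2181 genes were called, 1 crosslinking gene was called lower, Lox turned to -0.044 and Fbln2 was -1.13 (limma adjusted p = 0.00646). That model fits nearly as many terms as there are arrays. Little is then left to estimate the spread of a single gene, and its p-values lean on the variance shared across genes. In the 42 sets of 4 WT values tested, no array stood apart from the other 3 by Dixon's criterion.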
